A study of Mus musculus with 40 samples.

Results

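Postsynaptic density scaffold and signalling genes were followed in RNA-seq of mouse cortex after repeated high-frequency head impact (HF-HI). The set was a list of 42 gene symbols chosen by what their products do, and all transcripts in the deposited table that the RefSeq annotation of mouse build mm10 assigns to them were taken as members. There were 79 such transcripts of 41 genes, among 6831 transcripts of 5849 genes in all. Camk2d, a CaMKII subunit gene, had no transcript in the table and was not analysed here.

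The 40 libraries came from male C57BL/6 mice aged 12 weeks, with 10 libraries in each of 4 groups. Saline sham mice received saline and the sham procedure, and saline HF-HI mice received saline and head impacts. Memantine sham and memantine HF-HI mice received memantine, an open-channel blocker of NMDA receptors, in place of saline. The injection was given 1 h before each day's procedure, and cortex was taken 24 h after injury. All 4 groups shared the daily injection, and per the study's methods sham mice were handled and anaesthetised like impacted mice. The series text speaks of 4 samples per group, whereas the labels give 10, and the labels were followed. The labels do not say whether each library is 1 animal, so the p-values measure the spread between libraries. Whole cortex holds many cell types, so fewer cells of a type and less RNA per cell cannot be told apart.

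The postsynaptic density is the protein meshwork under the membrane of an excitatory synapse. Its MAGUK proteins hold glutamate receptors and adhesion proteins at the membrane, DLGAP and SHANK proteins form the layers beneath, and HOMER links SHANK to metabotropic glutamate receptors and internal calcium stores. CaMKII, calcineurin and neurogranin read the calcium that enters through NMDA receptors, and exchange factors for Rac and Arf proteins turn those signals into changes of spine actin and receptor traffic. Which cell types made the transcripts of each member was not resolved in whole cortex.

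Many of these genes make several proteins from alternative exons, and for 4 of them, Homer1, Kalrn, Dlg3 and Camk2g, coding segments that separate transcripts described below are printed here. They are shown because the reads of a gene can be divided among its transcripts only where such segments or transcript ends differ, and no segment is printed for the other genes. The segments were read from GENCODE M21 transcript models (GRCm38, the assembly of mm10) that carry the RefSeq identifiers. Capitals mark the segment that one transcript has and the other lacks, and the lower-case letters are the neighbouring coding bases. The first is a Homer1 exon at chr13:93386345-93386380, plus strand, which NM_147176 has and NM_001284189 lacks. The second ends the coding sequence of NM_011982, the short Homer1a form, at chr13:93356080-93356110, plus strand. The third ends the coding sequence of the short Kalrn transcript NM_001164268 at chr16:34153446-34153505, minus strand. The fourth is a Dlg3 exon at chrX:100771307-100771360, plus strand, present in NM_001177778 and absent from NM_001290402, and the fifth is a Dlg3 exon at chrX:100811502-100811543, plus strand, present in NM_016747 and absent from NM_001177778. The last is a Camk2g exon at chr14:20747819-20747851, minus strand, present in NM_178597 and absent from NM_001039138.
Homer1 36-base exon: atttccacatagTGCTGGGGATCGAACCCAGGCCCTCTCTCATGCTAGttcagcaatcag
Homer1a coding end: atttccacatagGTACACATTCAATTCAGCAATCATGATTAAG
Kalrn short-form coding end: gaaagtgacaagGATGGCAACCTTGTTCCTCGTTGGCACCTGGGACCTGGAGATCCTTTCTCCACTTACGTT
Dlg3 54-base exon: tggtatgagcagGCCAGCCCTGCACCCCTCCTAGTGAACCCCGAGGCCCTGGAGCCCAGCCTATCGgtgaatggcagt
Dlg3 42-base exon: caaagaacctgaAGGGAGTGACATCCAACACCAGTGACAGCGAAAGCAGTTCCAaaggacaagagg
Camk2g 33-base exon: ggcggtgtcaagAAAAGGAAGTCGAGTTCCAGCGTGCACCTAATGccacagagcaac

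Levels are given as normalised read counts, that is, read counts divided by the size factor of the library. They were obtained by inverting the variance-stabilising transformation of the deposited values. Libraries held 13322404 to 17529644 reads over the table. A gene sum is the summed normalised count of a gene's transcripts in the table, and its changes are differences of log2 counts. Transcript changes are on the deposited scale, which compresses low counts, so the change of the log2 count is given beside them. For the transcript with the smallest mean count, 549.2, the sampling of reads sets a coefficient of variation of 4.27%. The limma test was two-sided over all genes or transcripts, with adjusted p-values over the whole table. Rose and fell are used only for an unadjusted p under 0.05, and no member passed an adjusted p of 0.1 in any comparison.

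Markers of cortical excitatory neurons were present as labelled, with 13 of 16 listed genes in the table. Of 27 listed striatal markers, 19 were also in the table, and their summed count was 48875 to 77924 (median 68516) in saline sham and 51525 to 67142 (median 59409.7) in saline HF-HI libraries. In that comparison 12 of the 19 were lower at p under 0.05 and none was higher. Under memantine 1 of the 19 was lower, and averaged over the drug arms 10 were lower. The interaction of impact and drug passed for 0 of the 19, so the arms are not shown to differ. Microglial markers were higher at p under 0.05 for 2 of the 6 in the table under saline, for 2 under memantine and for 3 averaged over the drug arms, where 1 had an adjusted p under 0.1. Their summed count was 5126 to 6308 (median 5675) in saline sham and 5585 to 6272 (median 6010.4) in saline HF-HI libraries. Endothelial markers were higher for 2 of the 4 in the table under saline, with a median change of 0.12, and for 1 under memantine, and averaged over the arms 1 was higher, with an adjusted p under 0.1. Their summed count was 3344 to 3961 (median 3779) in saline sham and 3572 to 4399 (median 3907) in saline HF-HI libraries. Of 13 astrocyte markers, 2 were higher under saline and 2 higher and 1 lower under memantine, and of 10 oligodendrocyte markers none passed in either arm. Of all gene sums, 10.7% passed under saline, 4.38% under memantine, 10.9% averaged over the arms and 3.59% in the interaction. At an adjusted p under 0.1 the share averaged over the arms was 0.889%. The part of the microglial and endothelial markers in the results was not tested. Of the listed striatal markers, Drd1 and Ppp1r1b were in the table, whereas Drd2 and Adora2a had no row there. Whether the libraries held striatal tissue was not tested.

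The first question was whether impact changed these genes in mice given saline. Of the 41 gene sums, 6 passed, with 2 higher and 4 lower in HF-HI, whereas 10.7% of all gene sums tested passed (5.15% higher and 5.57% lower). The 2 that rose were Camk2g, a CaMKII subunit gene, and Lrrc4c, which encodes the adhesion protein NGL-1. The 4 that fell were Lrrtm4, Lrrtm1, Dlgap2 and Baiap2. Among the 79 transcripts, 12 passed, with 6 higher and 6 lower, against 9.53% of all transcripts tested (4.58% higher and 4.95% lower). At an adjusted p under 0.1 no member was called, where the share over the whole table was 0.359% of gene sums and 0.205% of transcripts. The smallest adjusted p was 0.203 for a gene sum and 0.284 for a transcript. The median change over the 41 gene sums was -0.030, beside -0.00013 over all gene sums. The 4 group totals of the set overlapped, with medians of 278989 in saline sham and 278964 in saline HF-HI libraries.

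**Figure D1:**
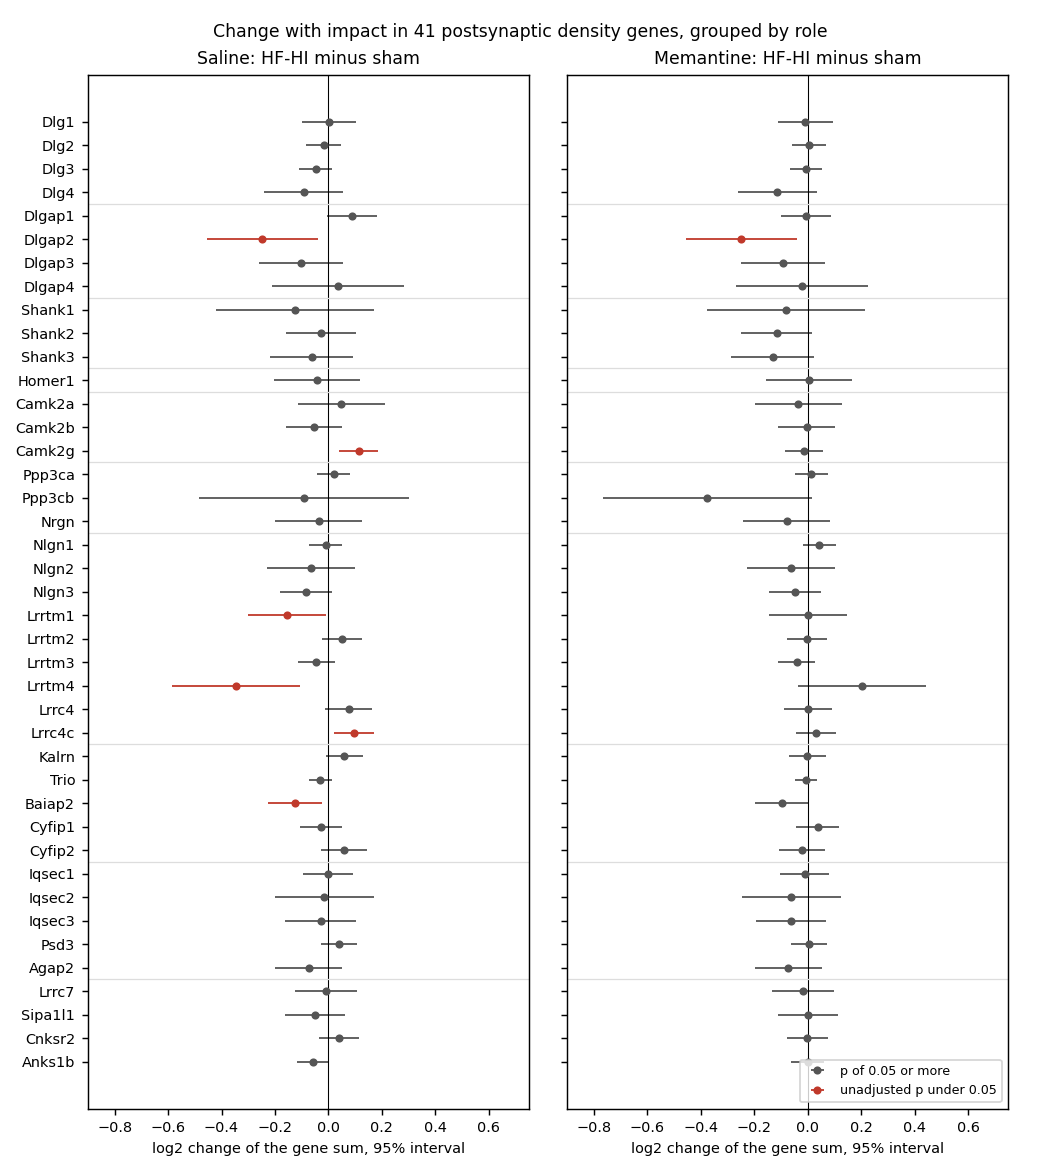
Log2 change of the gene sum between HF-HI and sham for each of 41 genes, grouped by role, under saline (left) and memantine (right), with bars for the 95% interval. Red marks an unadjusted p under 0.05, and 6 genes under saline and 1 under memantine are red.

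Most members could be held to a change within 20%, and fewer to one within 10%. In saline HF-HI against saline sham, the 95% interval of the change lay within 10% in either direction for 15 of the 41 gene sums and within 20% for 36. Estimates ran from -21.3% to 8.14%. The median half-width of the intervals was 0.10 on the log2 scale.

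The MAGUK genes encode the scaffolds that bind receptors and adhesion proteins through PDZ domains. None of the 4 gene sums passed under saline. Dlg4, which encodes PSD-95, the main scaffold of the density, had counts of 4899 to 7029.5 (median 5717) in saline sham and 4949.5 to 6599 (median 5133) in saline HF-HI libraries. The ranges overlapped almost entirely, and the change was -0.092 (95% interval -0.24 to 0.056, p = 0.215). For Dlg1 (SAP97), Dlg2 (PSD-93) and Dlg3 (SAP102), the changes were 0.0018, -0.018 and -0.048, and the interval for Dlg2 ran from -5.55% to 3.30%.

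The DLGAP genes encode the SAPAP proteins, which join PSD-95 to SHANK. Dlgap2 had a gene sum of 1263 to 1896 (median 1432) in saline sham and 886 to 1739 (median 1284) in saline HF-HI libraries. The HF-HI libraries were shifted down with overlap, and 1 of 10 lay above the sham mean. Dlgap2 fell by 15.7%, a log2 change of -0.25 (SE 0.10, p = 0.0212, adjusted p = 0.372). Without saline sham library 2 the change was -0.21 (p = 0.0511), without saline HF-HI library 6 it was -0.19 (p = 0.0617) and without saline HF-HI library 7 it was -0.20 (p = 0.0562), so the call rests on these 3 libraries. In memantine mice, which share no library with the saline mice, Dlgap2 ran from 1205 to 1793 (median 1414) in sham and from 919.7 to 1557 (median 1197) in HF-HI libraries. The memantine HF-HI libraries were again shifted down with overlap, and the change was -0.25 (SE 0.10, p = 0.0206, adjusted p = 0.958), with a p of 0.0547 without memantine HF-HI library 1. Averaged over both drug arms, the change was -0.25 (SE 0.073, p = 0.00155, adjusted p = 0.134), and Dlgap2 was the 1 gene of the 41 with an unadjusted p under 0.05 in each arm. It has 1 transcript in the table.

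The other SAPAP genes did not pass. Dlgap1 had a change of 0.087 (SE 0.047, p = 0.0697), Dlgap3 of -0.10 (SE 0.077, p = 0.193) and Dlgap4 of 0.037 (SE 0.12, p = 0.764). Dlgap3 has 2 transcripts with coding sequences of the same length, 977 residues, and different starts. One of them, NM_198618, had counts of 1684 to 2725 (median 1911) in saline sham and 1224 to 2172 (median 1579) in saline HF-HI libraries. It fell by 0.15 on the deposited scale (p = 0.0354, adjusted p = 0.490), a log2 count change of -0.30.

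SHANK proteins form the deep scaffold layer. Shank1 counts were 2842 to 6017 (median 3692) in saline sham and 2576 to 5268 (median 3470.1) in saline HF-HI libraries. The libraries of both groups were widely and similarly spread, and the change was -0.13 (SE 0.15, p = 0.395). The estimate for Shank2 was -0.028 (SE 0.065, p = 0.672) and that for Shank3 -0.062 (SE 0.077, p = 0.422), with saline counts of Shank3 of 2332 to 2960.3 (median 2695) in sham and 2033 to 3182 (median 2517) in HF-HI mice. All 3 estimates were below 0 in both drug arms, and none of the 6 tests passed. Of the 41 gene sums, 28 were below 0 under saline and 30 under memantine. Shank1 and Shank2 varied together within groups (r of 0.92), so their estimates are not independent.

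Homer1 encodes the long HOMER1b and HOMER1c proteins, which assemble through a coiled coil, and the short activity-induced HOMER1a, which lacks it. The gene sum was 5987 to 9395 (median 7573) in saline sham and 5497 to 8912 (median 7047) in saline HF-HI libraries. The groups overlapped throughout, with a change of -0.042 (SE 0.080, p = 0.600). The short NM_011982, of 186 residues, was at 1203 to 2959.8 (median 1899) in saline sham and 1385 to 2203 (median 1795) in saline HF-HI libraries, a deposited-scale change of -0.040 (SE 0.079, p = 0.619, log2 count change -0.070). The long NM_147176 of 366 residues, which holds the 36-base exon printed above, was at 3311 to 4998 (median 3872) and 3152 to 6029 (median 4213), a change of 0.063 (SE 0.068, p = 0.363, log2 count change 0.089). In contrast to these, the long NM_001284189 of 354 residues, without that exon, was at 813 to 1495 (median 1085) in saline sham and 204 to 1258 (median 719) in saline HF-HI libraries. The HF-HI libraries reached much lower, and 3 of 10 lay above the sham mean. It fell by 0.27 on the deposited scale (SE 0.10, p = 0.00955, adjusted p = 0.368), or -0.82 in log2 counts.

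CaMKII is the kinase that calcium influx through NMDA receptors switches on. Camk2g was at 4450.2 to 5427 (median 4800.2) in saline sham and 4697 to 5694 (median 5295) in saline HF-HI libraries. The HF-HI libraries lay higher, 9 of 10 of them above the sham mean, with overlap at the low end. Camk2g rose by 8.14%, a log2 change of 0.11 (SE 0.036, p = 0.00293, adjusted p = 0.203), and it passed whichever library was left out (p of 0.00851 at most). With the mean of the striatal markers as a covariate the change was 0.072 (p = 0.0532). Of its 3 transcripts, NM_178597, which holds the 33-base exon printed above, rose by 0.12 on the deposited scale (p = 0.0373), or 0.21 in log2 counts.

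The main neuronal subunit genes did not pass. Camk2a was at 22344 to 32313 (median 25559.8) in saline sham and 22955 to 33375 (median 26849) in saline HF-HI libraries, a change of 0.047 (SE 0.080, p = 0.557). Camk2b was at 9105 to 12516 (median 10856) and 8532 to 11578 (median 10899.7), a change of -0.054 (SE 0.052, p = 0.304). Both pairs of groups overlapped throughout. The short Camk2a transcript NM_001286809, of 189 residues where the full-length NM_177407 has 478, was at 317 to 859.8 (median 466) in saline sham and 447 to 1005 (median 657) in saline HF-HI libraries. It rose by 0.12 on the deposited scale (p = 0.0304, adjusted p = 0.480), or 0.41 in log2 counts.

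Calcineurin, the calcium-dependent phosphatase, opposes CaMKII, and neurogranin, the product of Nrgn, binds calmodulin in spines. Ppp3ca, for a catalytic subunit of calcineurin, was at 25526 to 30434 (median 28999.5) in saline sham and 26457 to 31496 (median 29345) in saline HF-HI libraries. The ranges overlapped, with a change of 0.019 and a 95% interval of -2.88% to 5.74%. Nrgn was at 3598 to 4899 (median 4027) and 3279.7 to 4583 (median 3966), with a change of -0.037 (SE 0.081, p = 0.647).

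Ppp3cb, for the other neuronal catalytic subunit, fell into 2 bands of libraries in every group. Its gene sum was at or under 3063 in 19 libraries and at or over 4717 in 21, and no library lay between. The upper band held 5 of 10 saline sham, 4 of 10 saline HF-HI, 8 of 10 memantine sham and 4 of 10 memantine HF-HI libraries. The gap was 53.4% of the whole range of the 40 libraries, and the next widest gap in a member gene was 20.03% of the range, in Baiap2, with the 3 lowest and the 3 highest libraries set aside. With this spread (SD 0.45 on the log2 scale within groups), the impact changes were -0.092 (SE 0.19, p = 0.636) under saline and -0.38 (SE 0.19, p = 0.0598) under memantine. Its transcript NM_001310426 was at 1594 to 2922 (median 2604) in memantine sham and 1605 to 2580.5 (median 1735) in memantine HF-HI libraries. There it fell by 0.17 on the deposited scale (p = 0.0353, adjusted p = 0.967, log2 count change -0.32), and the call was lost when any one of 11 libraries was left out (p of up to 0.0651). The source of the bands was not tested.

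**Figure D2:**
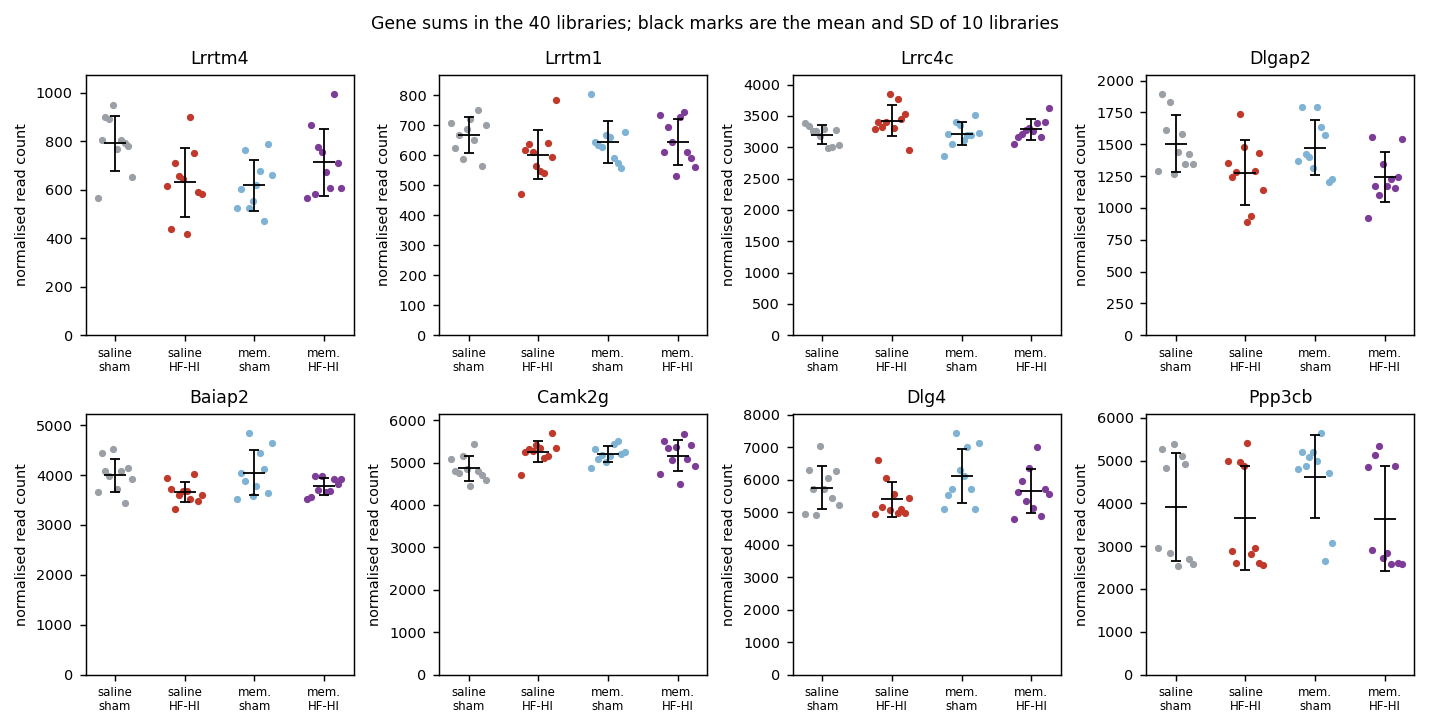
Normalised read count of the gene sum of 8 genes in each of 40 libraries, by group (mem., memantine), with the mean and SD of 10 libraries in black and axes from 0. Lrrtm4 and Dlgap2 sit lower in saline HF-HI than in saline sham, Camk2g and Lrrc4c sit higher, and Ppp3cb falls into 2 bands in all 4 groups.

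Adhesion proteins of the postsynaptic membrane bind presynaptic neurexins and other partners and recruit PSD-95 through their tails. Lrrtm4, which encodes a leucine-rich repeat protein that binds heparan sulfate proteoglycans and neurexins, showed the largest estimate among the 41 gene sums under saline. Its counts were 567 to 948 (median 798) in saline sham and 417 to 899 (median 630.3) in saline HF-HI libraries. The HF-HI libraries lay lower, with 1 of 10 above the sham mean and overlap at the top. Lrrtm4 fell by 21.3%, a log2 change of -0.35 (SE 0.12, p = 0.00552, adjusted p = 0.248), and the change kept a p under 0.05 whichever library was left out (0.0175 at most). Lrrtm1 was at 564 to 749 (median 678) in saline sham and 472 to 783 (median 603) in saline HF-HI libraries. Again 1 of 10 HF-HI libraries lay above the sham mean, and the change was -0.15 (SE 0.072, p = 0.0386, adjusted p = 0.431). With the GC score described below as a covariate, the p for Lrrtm1 was 0.0517.

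Lrrc4c moved the other way. Its gene sum was 2987 to 3394 (median 3259) in saline sham and 2954 to 3853 (median 3405) in saline HF-HI libraries. The HF-HI libraries were higher, 9 of 10 above the sham mean, though the lowest of them was under every sham library. The rise was 0.095 (SE 0.037, p = 0.0136, adjusted p = 0.332), and the p was 0.0403 at most whichever library was left out. Its transcript NM_178725 rose by 0.083 on the deposited scale (p = 0.00429, adjusted p = 0.284, log2 count change 0.14). Lrrtm2 and Lrrtm3 had changes of 0.049 (SE 0.037, p = 0.191) and -0.045 (SE 0.035, p = 0.195), and Lrrc4, for NGL-2, of 0.075 (SE 0.044, p = 0.0961).

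The neuroligins bind presynaptic neurexins, neuroligin-1 at excitatory and neuroligin-2 at inhibitory synapses. Nlgn1 was at 3348 to 3654 (median 3554) in saline sham and 3177 to 3799.9 (median 3565) in saline HF-HI libraries. The ranges overlapped, with a change of -0.010 and a 95% interval of -4.83% to 3.61%. Nlgn2 was at 1905 to 2991 (median 2367) and 1838 to 2820.2 (median 2226), with a change of -0.064 (SE 0.082, p = 0.435). Nlgn3 was at 1449 to 1916 (median 1734) and 1522 to 1846 (median 1601), with a change of -0.084 (SE 0.048, p = 0.0889). In 1 of 10 HF-HI libraries Nlgn3 lay above the sham mean, and its p was 0.0452 without saline sham library 1, 0.0203 without saline sham library 4 and 0.0356 without saline HF-HI library 2.

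Among the regulators of Rac and spine actin, Baiap2, which encodes the membrane-bending adaptor IRSp53, was at 3444 to 4513 (median 4026) in saline sham and 3326 to 4018 (median 3642) in saline HF-HI libraries. The HF-HI libraries lay in the lower part of the sham range, with 1 of 10 above the sham mean. Baiap2 fell by 8.37%, a log2 change of -0.13 (SE 0.050, p = 0.0153, adjusted p = 0.348). Averaged over both drug arms, the change was -0.11 (SE 0.035, p = 0.00312, adjusted p = 0.182). The deviations of Baiap2 from its group means had a correlation of 0.56 with those of the summed striatal markers over the 40 libraries, given as a description. With the striatal marker mean as a covariate the saline change was -0.044 (p = 0.334). In that fit 4 member gene sums passed, beside 5.45% of all gene sums, and the change was -0.30 for Lrrtm4 (p = 0.0268), -0.27 for Dlgap2 (p = 0.0211) and 0.097 for Lrrc4c (p = 0.0235).

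Kalrn and Trio encode exchange factors for Rac that enlarge spines. The gene sum of Kalrn did not pass (change 0.060, p = 0.0923), and Trio, with the narrowest spread of the 41, had a change of -0.030 with a 95% interval of -4.85% to 0.791%. The short Kalrn transcript NM_001164268, whose coding end is printed above and whose 1654 residues are those of the kalirin-7 form of the density, was at 6631 to 9155 (median 7873) in saline sham and 7329.7 to 9866 (median 8256) in saline HF-HI libraries. Its HF-HI libraries were higher, 8 of 10 above the sham mean, with wide overlap. It rose by 0.11 on the deposited scale (SE 0.046, p = 0.0216, adjusted p = 0.445, log2 count change 0.14). The long NM_177357 of 2964 residues had a change of 0.0042 (SE 0.033, p = 0.900, log2 count change 0.0050). Cyfip1 and Cyfip2, for subunits of the WAVE complex that drives actin branching, had changes of -0.028 (SE 0.039, p = 0.486) and 0.057 (SE 0.042, p = 0.182).

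The Arf group holds the exchange factors Iqsec1, Iqsec2, Iqsec3 and Psd3 and the GTPase-activating protein gene Agap2, which act on endosomal receptor traffic. None of the 5 passed under saline, with changes from -0.074 (Agap2) to 0.040 (Psd3). Of the remaining scaffold genes, Anks1b, for the PSD-95 and amyloid precursor interactor AIDA-1, had a change of -0.057 (SE 0.030, p = 0.0608). The others, Lrrc7 (densin-180), Sipa1l1 (SPAR) and Cnksr2 (CNK2), had changes from -0.051 to 0.038. The Anks1b transcript NM_001177397 was at 543 to 1099 (median 826) in saline sham and 622 to 781 (median 681) in saline HF-HI libraries. All 10 HF-HI libraries lay below the sham mean in a narrow range, and it fell by 0.090 (SE 0.038, p = 0.0225, adjusted p = 0.446), or -0.24 in log2 counts.

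The second question was whether memantine altered these changes. Under memantine, impact lowered 1 of the 41 gene sums, Dlgap2, and raised none (background 4.38%), and 3 of 79 transcripts passed (background 4.61%). No member had an adjusted p under 0.1 (background 0.0171% of gene sums and 0.0146% of transcripts). Besides Dlgap2 and Ppp3cb NM_001310426, this was Psd3 NM_177698, the long form of an Arf exchange factor, at 1315 to 2225 (median 1586) in memantine sham and 1525 to 2459.7 (median 1822) in memantine HF-HI libraries. It rose by 0.10 (SE 0.042, p = 0.0217, log2 count change 0.20), with 9 of 10 HF-HI libraries above the sham mean. A change that passed under saline and not under memantine is not thereby shown to differ, and the interaction of impact and drug tested that difference.

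The interaction passed for 2 of 41 gene sums (background 3.59%) and for 5 of 79 transcripts (background 3.73%), with no adjusted p under 0.99. For Lrrtm4 the memantine libraries ran from 470.0 to 790.1 (median 613) in sham and from 567 to 996 (median 692) in HF-HI mice, so the impact estimate was 0.20 under memantine beside -0.35 under saline, and the difference was 0.55 (SE 0.17, p = 0.00212). For Camk2g they ran from 4870.1 to 5499.5 (median 5197) in sham and from 4503 to 5676 (median 5209) in HF-HI mice. Its impact estimate was -0.014 under memantine beside 0.11 under saline, a difference of -0.13 (SE 0.050, p = 0.0154). In both genes the median of the saline sham group lay on one side of the other 3 medians, and the ranges overlapped. On the deposited scale the differences of the transcripts that passed were Lrrtm4 NM_001282102 at 0.18 (SE 0.056, p = 0.00228, log2 count change 0.55), Kalrn NM_001164268 at -0.16 (SE 0.065, p = 0.0210, log2 count change -0.20), Homer1 NM_001284189 at 0.32 (SE 0.14, p = 0.0294, log2 count change 1.04), Lrrc4c NM_178725 at -0.087 (SE 0.039, p = 0.0305, log2 count change -0.15) and Anks1b NM_001177397 at 0.11 (SE 0.054, p = 0.0465, log2 count change 0.30).

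In sham mice, memantine against saline gave 3 of 41 gene sums (background 7.9%), and this contrast shares the saline sham libraries with the saline impact contrast. Lrrtm4 differed by -0.36 (SE 0.12, p = 0.00419, adjusted p = 0.393), and none of 10 memantine sham libraries lay above the saline sham mean. Camk2g was higher by 0.099 (SE 0.036, p = 0.00850, adjusted p = 0.502), with 10 of 10 libraries above that mean. Cyfip2 was higher by 0.099 (SE 0.042, p = 0.0242, adjusted p = 0.581), with memantine sham libraries at 17658 to 21677 (median 20016) and saline sham libraries at 17281 to 20214 (median 18501). Of the 79 transcripts, 5 passed (background 7.51%), and none had an adjusted p under 0.1 (background 0.0513% of gene sums and 0.0293% of transcripts). Among them, Homer1 NM_001284189 differed by -0.28 (SE 0.10, p = 0.00926, log2 count change -0.84), with memantine sham counts of 235 to 1310.3 (median 722), Kalrn NM_001164268 was higher by 0.10 (SE 0.046, p = 0.0344, log2 count change 0.13), and Shank3 NM_021423 was higher by 0.094 (SE 0.045, p = 0.0463, log2 count change 0.16). Shank3 has 1 transcript in the table, and its gene sum, which holds the same counts, did not pass. The call on that transcript was lost when any one of 12 libraries was left out (p of up to 0.111).

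In HF-HI mice, memantine against saline gave 1 of 41 gene sums (background 3.62%) and 3 of 79 transcripts (background 3.91%). The gene was Anks1b, at 5729 to 6383 (median 6054) in saline HF-HI and 6011 to 6527 (median 6319) in memantine HF-HI libraries. All 10 memantine libraries lay above the saline mean, and the rise was 0.065 (SE 0.030, p = 0.0359, adjusted p = 0.997). The transcripts were Dlg3 NM_001177778 at -0.10 (SE 0.043, p = 0.0240, log2 count change -0.25), Anks1b NM_001177397 at 0.081 (SE 0.038, p = 0.0399, log2 count change 0.22) and Lrrc4c NM_178725 at -0.057 (SE 0.027, p = 0.0437, log2 count change -0.098). This contrast shares its saline HF-HI libraries with the saline impact contrast.

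Averaged over both drug arms, impact gave 3 of 41 gene sums (background 10.9%) and 8 of 79 transcripts (background 9.66%). None had an adjusted p under 0.1, where 0.889% of gene sums and 0.425% of transcripts did. The genes were Dlgap2 and Baiap2, which fell as given above, and Lrrc4c, which rose by 0.064 (SE 0.026, p = 0.0190, adjusted p = 0.347). The 5 transcripts with the smallest p were Dlgap2 NM_172910 at -0.11 (SE 0.033, p = 0.00181, log2 count change -0.25), Camk2a NM_001286809 at 0.11 (SE 0.039, p = 0.00795, log2 count change 0.34), Cnksr2 NM_001310719 at 0.064 (SE 0.026, p = 0.0180, log2 count change 0.084), Cnksr2 NM_177751 at -0.091 (SE 0.041, p = 0.0319, log2 count change -0.15) and Dlgap3 NM_198618 at -0.11 (SE 0.050, p = 0.0366, log2 count change -0.21).

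The 52 calls at an unadjusted p under 0.05, over all 6 contrasts, differed in how many libraries they rested on. Lrrtm4, Lrrtm1 and Dlgap2 have 1 transcript each in the table, so their calls on gene sums and on transcripts use the same counts. Of 16 calls on gene sums, 11 kept a p under 0.05 whichever library was left out, among them every call on Lrrtm4, Camk2g, Baiap2 and Lrrc4c. The call on Lrrtm1 was lost when any one of 9 libraries was left out (p of up to 0.104), that on Cyfip2 without memantine sham library 7 or 10 (p of up to 0.0544), and that on Anks1b without any one of 8 (p of up to 0.0688). Of 36 calls on transcripts, 10 were kept, among them those on Homer1 NM_001284189 under saline and in sham mice. Its interaction was lost when any one of 5 libraries was left out (p of up to 0.0549). The saline rise of Kalrn NM_001164268 was lost without saline sham library 6 or 10 or saline HF-HI library 9 (p of up to 0.0553), and that of Camk2a NM_001286809 without any one of 6 libraries (p of up to 0.0754). The saline calls on Dlg3 NM_001177778, Dlgap3 NM_198618 and Camk2g NM_178597 were each lost when any one of 8 libraries was left out (p of up to 0.109, 0.0784 and 0.0805), and that on Anks1b NM_001177397 without saline sham library 6 or 9 (p of up to 0.0600).

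Within a gene, the share of each transcript was tested apart from the level, over the 64 transcripts of the 26 genes with more than 1. Under saline, 2 of the 64 shares passed (background 4.66%), and under memantine 1 did (background 5.2%), that of Psd3 NM_177698 at 0.22 (SE 0.11, p = 0.0493, adjusted p = 0.891). Memantine against saline gave 1 in HF-HI mice (background 4.96%) and 3 in sham mice (background 5.2%), and the interaction gave 3 (background 3.52%). No share passed after adjustment in any contrast. The Dlg3 transcript NM_001177778, with the 54-base exon and without the 42-base exon printed above, made up 16.2% to 31.7% (median 26.1%) of Dlg3 in saline sham and 25.6% to 35.8% (median 30.9%) in saline HF-HI libraries. Its share rose with impact by 0.38 (SE 0.14, p = 0.0110, adjusted p = 0.901) on the log2 ratio scale, and its count rose by 0.094 on the deposited scale (p = 0.0376, log2 count change 0.23) with 9 of 10 HF-HI libraries above the sham mean. In memantine HF-HI libraries the share was 19.05% to 30.8% (median 26.6%), a difference from saline HF-HI libraries of -0.33 (SE 0.14, p = 0.0280, adjusted p = 0.979), and the interaction was -0.47 (SE 0.20, p = 0.0271, adjusted p = 0.994).

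Homer1 NM_001284189 made up 9.66% to 19.1% (median 15.1%) of Homer1 in saline sham and 2.29% to 18.5% (median 10.4%) in saline HF-HI libraries. The other 3 groups spread further down than saline sham, with memantine sham at 3.03% to 19.6% (median 11.6%) and memantine HF-HI at 6.24% to 17.9% (median 9.42%). The change of the share with impact was -0.85 (SE 0.38, p = 0.0298, adjusted p = 0.936) under saline. In sham mice the difference between memantine and saline was -0.84 (SE 0.38, p = 0.0316, adjusted p = 0.837), with the same saline sham libraries as reference. The share of the Homer1a form NM_011982 was 20.1% to 31.5% (median 24.1%) in saline sham and 21.4% to 26.8% (median 24.96%) in saline HF-HI libraries.

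In the Kalrn gene the short form made up 35.1% to 45.5% (median 39.6%) in saline sham and 38.4% to 46.5% (median 40.3%) in saline HF-HI libraries. With memantine it made up 37.2% to 44.6% (median 41.01%) in sham and 38.7% to 41.2% (median 39.7%) in HF-HI libraries. The memantine HF-HI libraries were the tightest of the 4 groups, and the interaction of its share was -0.24 (SE 0.11, p = 0.0415, adjusted p = 0.994). Averaged over both drug arms, impact moved 6 of 64 shares (background 5.62%). Among them, Cnksr2 NM_001310719 took a larger share by 0.24 (SE 0.091, p = 0.0128, adjusted p = 0.602) and NM_177751 a smaller one, and the short Camk2a form took a larger share by 0.34 (SE 0.14, p = 0.0194, adjusted p = 0.602). The 2 Cnksr2 identifiers share 1 GENCODE model, so the segment that separates them is not given here. The Camk2a form was at 1.20% to 3.21% (median 1.77%) of Camk2a in saline sham and 1.71% to 3.84% (median 2.35%) in saline HF-HI libraries, and with memantine at 1.53% to 2.35% (median 1.78%) in sham and 1.30% to 3.25% (median 2.45%) in HF-HI libraries. In sham mice, Dlg2 NM_001243047 took a larger share under memantine by 0.74 (SE 0.33, p = 0.0320, adjusted p = 0.837), with shares of 9.47% to 46.6% (median 25.2%) under saline and 20.98% to 43.4% (median 31.95%) under memantine, and NM_011807 a smaller one.

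**Figure D3:**
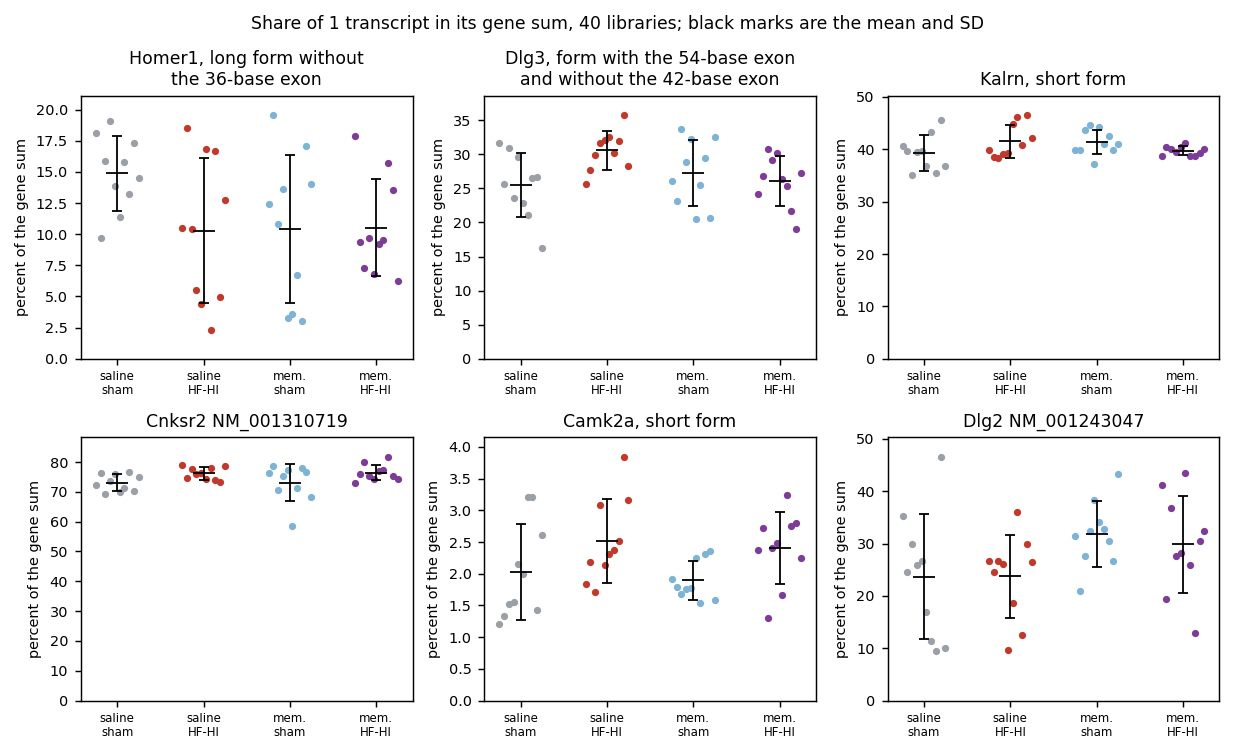
Percent of the gene sum carried by 1 transcript of Homer1, Dlg3, Kalrn, Cnksr2, Camk2a and Dlg2 in each of 40 libraries, by group (mem., memantine), with the mean and SD in black and axes from 0. The Homer1 form is between 9.66% and 19.1% in saline sham and reaches down to 2.29% in saline HF-HI libraries, and the Dlg3 form is higher in saline HF-HI than in saline sham libraries.

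Transcripts of a gene varied more than their sum, which the division of a pool of reads among them tends to give. The figures are not given here for the other genes of the table. Of the 64 transcripts, 63 had a larger SD within groups than their gene sum on the log2 count scale, with medians of 0.28 for the transcripts and 0.11 for the gene sums. Of 55 pairs of transcripts of one gene, 38 had a negative correlation of their deviations over the 40 libraries, down to -0.80 for the Dlg2 pair, which share the reads of 1 gene. The widest was Cyfip1 NM_001164662, with an SD of 1.61 where the gene sum had 0.089. The part that the division of reads between transcripts plays in the shares above was not tested.

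**Figure D4:**
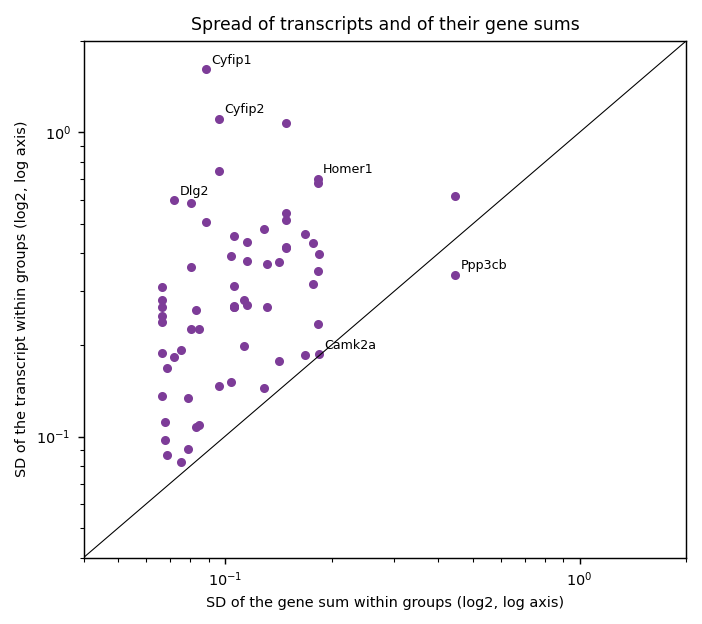
SD within groups of each of 64 transcripts against that of its gene sum, both of log2 normalised counts on log axes, with the line of equality. Every transcript but 1 of Ppp3cb lies above the line, up to 1.61 for Cyfip1.

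The members also varied together between libraries of the same group. Over the deviations of 41 gene sums from their group means in 40 libraries, the first principal component held 38.9% of the variance. Of 820 pairs of genes, 24.9% had a correlation over 0.5 and 1.83% one under -0.5, with a median of 0.18. The closest pairs were Shank1 and Shank2 (0.92), Dlg4 and Agap2 (0.92), and Shank1 and Nlgn2 (0.90). The most opposed was Lrrtm1 and Cnksr2 (-0.71). These are descriptions over libraries that differ in depth and composition. The same figures are not given here for the other genes of the table, so they are not shown to be particular to the members.

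This common variation went with the GC content of the genes. A GC score was computed for each library as the median deviation of non-member transcripts in the highest quartile of GC content less that of the lowest quartile. Its correlation with the first component of the members was 0.79 over all libraries and 0.77 to 0.83 within the 4 groups. Dlgap3, with 64.9% GC in its transcript models, had a Pearson r of 0.86 and a Spearman correlation of 0.81 with the score (permutation within groups, p = 1e-05 for both, the smallest that 100000 permutations can give, adjusted p = 3.42e-05 and 3.73e-05 over 41 genes). Without the 2 libraries farthest from the median score, r was 0.83. At the other end, Lrrtm2, with 38.4% GC, had a Pearson r of -0.63 and a Spearman correlation of -0.58 (permutation p = 2e-05 and 0.00024, adjusted p = 5.47e-05 and 0.000579), and without the 2 farthest libraries an r of -0.56. Of the 41 genes, 25 had an adjusted p under 0.05 for this r. Across the 41 genes, which are not independent, GC content and the r with the score had a correlation of 0.87. The score sets high-GC against low-GC transcripts of the same libraries. Genes of high GC are therefore apt to follow it, and genes of low GC to oppose it. These figures are not given here for the other genes of the table, so they are not shown to be particular to the members. Some members also followed a length score, computed in the same way from transcript length. Its r was 0.65 for Shank1, 0.62 for Camk2a, 0.55 for Dlg2 and -0.43 for Dlg1, beside 0.66, 0.53, -0.070 and -0.36 with the GC score. Which of the 2 scores the common variation follows was not tested.

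**Figure D5:**
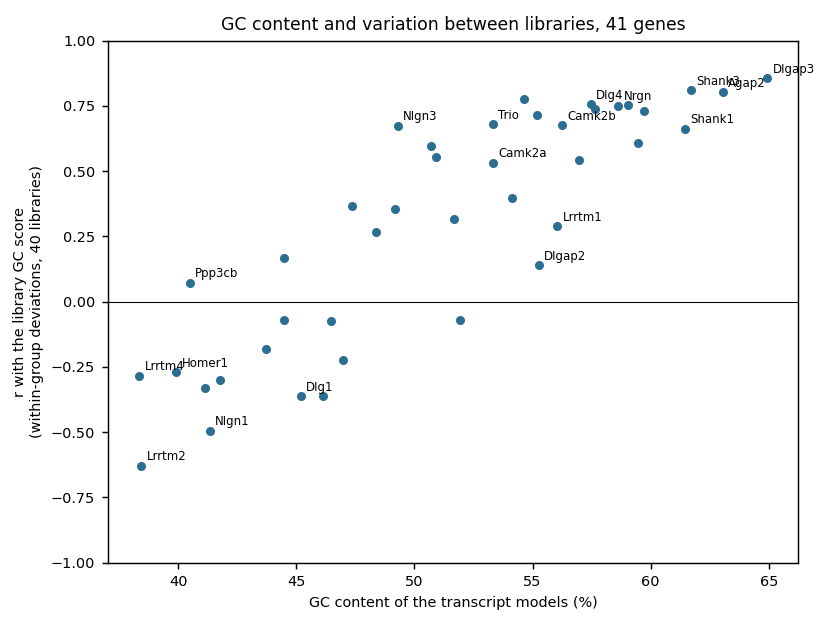
Correlation of each gene sum with the library GC score over 40 libraries, as deviations from group means, against the GC content of the gene's transcript models in percent. The 10 genes under 45% GC lie between -0.63 (Lrrtm2) and 0.17 (Lrrtm3), and the 10 genes over 57% between 0.61 (Dlgap4) and 0.86 (Dlgap3).

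The GC scores of the 4 groups overlapped, with saline medians of -0.0013 for sham and -0.0076 for HF-HI libraries and memantine medians of 0.042 and -0.034. With the score as a covariate, an alternative added after seeing the data, 9 gene sums, or 22.0% of the members, passed for impact under saline, and 12.4% of all gene sums passed in the same fit. In that fit the change was -0.37 (SE 0.12, p = 0.00287) for Lrrtm4, 0.12 (SE 0.034, p = 0.00122) for Camk2g, -0.11 (SE 0.043, p = 0.0147) for Baiap2 and -0.24 (SE 0.10, p = 0.0277) for Dlgap2. Cyfip2 (p = 0.0405), Dlgap1 (p = 0.0327), Kalrn (p = 0.0412) and Lrrc4 (p = 0.0499) passed there and not without the score, and each was higher in HF-HI mice. The smallest adjusted p among members was 0.108, for Camk2g. No cause of this variation was tested.

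Other genes of the postsynaptic density came from a second list of 105, with 95 in the table. Under saline, 14 of the 95 passed, or 14.7%, beside 10.7% of all gene sums, with a median change of -0.021. Of these, 2 were higher and 12 lower, beside 5.15% and 5.57% of all gene sums. Under memantine 4 passed, or 4.21%, beside 4.38% of all gene sums, and these 4 were lower. The smallest p under saline was that of Actn1, for the actin crosslinker alpha-actinin-1, at -0.17 (SE 0.050, p = 0.00162), and the next that of Nos1, for the neuronal nitric oxide synthase that PSD-95 tethers, at -0.28 (SE 0.091, p = 0.00379). The 2 that rose were Arc, whose product sheds AMPA receptors from synapses, at 0.69 (SE 0.25, p = 0.00833), and Epha4, for an ephrin receptor, at 0.075 (SE 0.034, p = 0.0352). Averaged over both arms, 16 passed, or 16.8%, beside 10.9% of all gene sums, with 3 higher and 13 lower. Actn1 was the 1 gene of these with an adjusted p under 0.1, with a change of -0.14 (SE 0.035, p = 0.000403, adjusted p = 0.0845).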

How the data were processed

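RNA-seq of cortex in 40 libraries was analysed from the deposited table. Per the study's methods, the authors aligned reads to mm10 with STAR, estimated counts per transcript with eXpress and normalised them with DESeq2. The submitters' processing notes instead name HISAT2 and StringTie, and which were used for this table is not given in the sources used here. The deposited values are variance-stabilised by the authors, on a log2 scale with a floor of 10.36 for a count of 0. The transformation was inverted, and in every library 100% of the values under 5000 were then whole reads divided by its size factor (0.859 to 1.141). Symbols were found for 99.62% of transcripts, and GENCODE M21 models for 74 of the 79 members.

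Groups came from the labels. A linear model with 1 term per group over all 40 libraries, with moderated variances that follow a trend (limma 3.58.1, R 4.3.3, two-sided tests), was fitted to the deposited values of 6831 transcripts, to log2 of the summed normalised count plus 1 of 5849 symbols, and to log2 ratios of a transcript to the other transcripts of its gene plus 1 (1674 transcripts). Benjamini-Hochberg adjustment was over each whole table. Permutations and summaries used Python 3.11.15, numpy 2.4.6 and scipy 1.17.1. The fit was tested on simulated data. Full statistics are given for the 5 smallest p-values under 0.05 in each contrast and for 12 core genes under saline, and other members by counts and ranges, with a few added after their values were seen. The members, lists and rules were chosen with earlier results of these data known. Alternatives were other scales and normalisations, a count filter of 1000, other variance models, a replicate block, covariates, and leaving out each library. Interval and counting errors cover these libraries only, and p-values measure the spread between libraries.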

Additional observations from a re-analysis of the deposited data

Results flagged for a closer look

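A library stood apart from the other 9 of its group in 10 of the 164 combinations of member gene and group tested, where chance flags about 1 in 20, or 8.2. The low ones were Dlg1 at 3873 in memantine HF-HI library 7, Lrrc4 at 1566 in saline HF-HI library 1, Cyfip2 at 17148 in the same library, Cyfip1 at 1419 in saline HF-HI library 6, and Cnksr2 at 8838 in saline HF-HI library 10 and at 9056 in memantine HF-HI library 1. The high ones were Shank1 at 6196 in memantine HF-HI library 7, Lrrtm1 at 804.7 in memantine sham library 1, Lrrtm3 at 1649 in saline HF-HI library 8 and Trio at 8786 in memantine HF-HI library 5, all in normalised counts.

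In the interaction test, 7 values had an unadjusted p under 0.05, and none had an adjusted p under 0.99, so no difference between the drug arms is established. The background was 3.59% of all gene sums and 3.73% of all transcripts. The values are given as the effect under memantine less that under saline. That of Anks1b NM_001177397 lost its p under 0.05 when any one of 23 libraries was left out (p of up to 0.0838). In log2 gene sums they were 0.55 for Lrrtm4 and -0.13 for Camk2g. On the deposited scale they were 0.18 for Lrrtm4 NM_001282102, -0.16 for Kalrn NM_001164268, 0.32 for Homer1 NM_001284189, -0.087 for Lrrc4c NM_178725 and 0.11 for Anks1b NM_001177397. The log2 count changes of these transcripts are given with the interaction above. Lrrtm4 has 1 transcript in the table, so its gene sum and its transcript hold the same counts on different scales.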

How the results depend on the processing

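No called change reversed its sign under any alternative. Counts of members at an unadjusted p under 0.05 moved by more than 1.5 times as follows, with the reported count in brackets. The percent of all gene sums or transcripts that passed in each of these fits is not given here. A moved count is therefore not shown to be particular to the members. For gene sums, weighting libraries (arrayWeights) gave 4 under memantine [1], 3 for the drug in HF-HI mice [1], 6 in sham mice [3] and 6 averaged over the arms [3]. Fitting only the contrast's groups gave 2 under memantine and 6 for the drug in sham mice, quantile normalisation 5 in sham mice, and a mean count of at least 1000 gave 1 in the interaction [2]. For transcripts, that filter gave 7 under saline [12], 3 for the drug in sham mice [5] and 2 in the interaction [5], where fewer transcripts were tested, and arrayWeights gave 5 under memantine [3] and 13 averaged over the arms [8]. With covariates added after seeing the data, the striatal marker mean gave 5 transcripts under saline, 5 averaged over the arms, and 0 gene sums for the drug in HF-HI mice, and the GC score gave 5 transcripts under memantine and 2 and 5 gene sums for the drug in HF-HI and sham mice. The cause was not tested. With the striatal covariate, 12 of 53 named changes lost their p under 0.05, Baiap2, Camk2g and Anks1b among them.

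Leaving out each library in turn gave 4 to 10 gene sums and 5 to 15 transcripts under saline, 1 to 5 and 1 to 6 under memantine, 0 to 4 and 1 to 6 for the drug in HF-HI mice, 2 to 6 and 3 to 7 in sham mice, 2 to 3 and 3 to 6 in the interaction, and 3 to 8 and 4 to 14 averaged over the arms. Under saline the gene sums reached 10 without HF-HI library 1, and the transcripts were 5 without sham library 6 and 7 without sham library 10 or HF-HI library 6 or 9. Same-numbered libraries had a mean correlation of 0.0021, with 4 of 60 pairs over 0.1, beside 25 of 540 pairs of different number and group. Of the 40 libraries, 3 correlated best with their own number. The labels do not say what the numbers stand for. With the replicate block, the gene sums were 8, 1, 2, 4, 2 and 5 and the transcripts 12, 5, 4, 6, 5 and 10, in the same order of contrasts. For the replicate block and for each library left out, the percent of all gene sums and transcripts that passed is not given here. These counts are therefore not shown to be particular to the members. Alternatives were not run for the shares. At 10 libraries a group, the median 95% interval of a gene sum reached 0.10 on the log2 scale to either side.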
